A study of Rattus norvegicus with 4 samples.

Results

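This account compares 2 of the 4 arrays of a rat series on intermittent claudication, leg pain on walking caused by poor blood flow. The array titled ischemia + ES, from ischemic muscle given electrical stimulation, was set over the array titled sham, the control with no ischemia in its label. Members are the genes whose ratio between these 2 arrays reached 2-fold, and there were 488 of them among 10092 genes compared. All 4 groups were skeletal muscle of rats of the F344/DuCrlCrlj strain, with 1 array per group. The other arrays, ischemia with no treatment and ischemia + exercise, are shown beside each member for context. Per the series' design text, ES makes the muscle contract through its nerve. The muscle taken, the age, the number of animals behind an array, any pooling, the stimulation and exercise protocols and the time of sampling are not stated in the labels.

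With 1 array per group, no difference below has a replicate check, no test was possible, and all p-values are left out. Precision is limited by this number of arrays. Values are MAS5 signals, a linear brightness per probe set. Signals under 30.1, the median of all values of the 4 arrays, were raised to that floor before the ratio was taken. A gene at the floor on 1 of the 2 arrays therefore has only a bound, written "at least". Sets of 4 signals are given in the order sham, ischemia, ischemia + ES, ischemia + exercise. Members were chosen by ES over sham, so the order of those arrays is set by the rule. Where a member is called highest or lowest on ES or sham, only the ischemia and exercise arrays add to that. Signals of different genes come from different probes and are not compared with each other. Where the signals of a list are summed, its brightest genes weigh most.

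Skeletal muscle is built of slow, oxidative fibres and fast fibres, each with its own isoforms of myosin, troponin and the calcium pump. Myofibres that form anew, in development or after injury, pass through a stage with embryonic and perinatal myosins. Muscle also holds capillaries, whose endothelial cells rest on a basement membrane of collagen IV and laminins, together with fibroblasts, macrophages and nerve endings. In RNA from whole muscle, fewer cells of a type and less RNA per cell cannot be told apart.

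On the ES array 381 genes were 2-fold or more higher than on sham, 3.78% of those compared, and 107 genes were 2-fold or more lower, 1.06%. Higher genes were thus 78.1% of all members, and the median log2 ratio of all genes compared was 0.05. The perinatal myosin Myh8 was the most raised gene and the slow tropomyosin Tpm3 the most lowered. At 3-fold or more there were 57 higher and 21 lower genes, and at 4-fold or more 17 and 9. The median member was 2.31-fold higher or 2.30-fold lower. Of the higher genes 69 were at the floor on sham, and of the lower genes 17 were at the floor on ES. Higher genes above the floor on both arrays were dim on sham, with a median signal of 86.5, against 317 for lower genes and 195 for all genes of that kind. Sham is the denominator of the ratio. Choosing genes by that ratio therefore itself favours low sham signals among higher genes and high ones among lower genes. The members just inside the threshold stood at 2.0005-fold higher and 2.0007-fold lower. Those just outside stood at 1.9999-fold and 1.9986-fold.

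**Figure D1:**
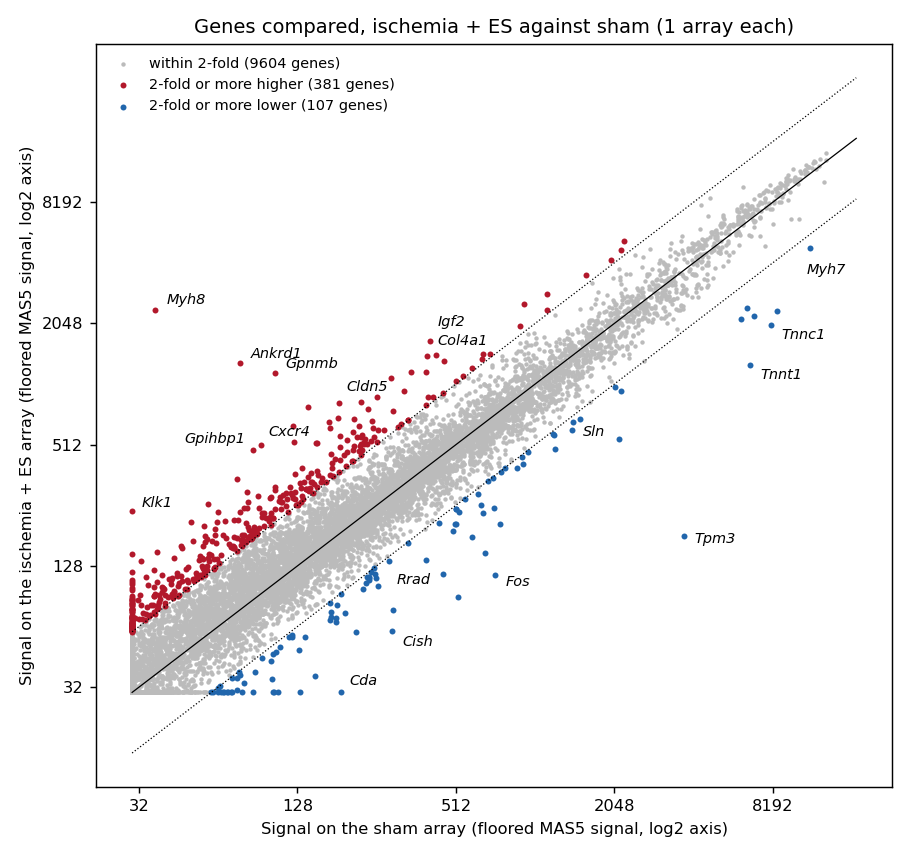
Signal on the sham array (horizontal, log2 axis) against signal on the ischemia + ES array (vertical, log2 axis), floored at 30.1, 1 point per gene. The solid line marks equal signals and the dotted lines 2-fold; the 381 higher genes are red, the 107 lower genes blue, and Myh8 and Tpm3 lie farthest out.

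The 4 arrays were alike in overall brightness, with median signals of 29.02 to 31.76 and a trimmed mean of 150.1 on each. The 3' over 5' signal ratio of actin, which rises as RNA integrity falls, was highest on the ES array. It was 5.94 there against 3.81 to 4.38 on the others. For GAPDH it was 1.26 against 1.04 to 1.16. The part of this difference in the results was not tested. Other probe sets of a gene often gave smaller ratios. Of 62 higher genes with another probe set above the floor, 22 had another one past 2-fold the same way and 2 had one of opposite sign. Of 25 lower genes these counts were 11 and 1.

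Slow fibre genes were the main group lower with ES. Of 11 slow fibre contractile genes, 8 were 2-fold or more lower and 0 higher, with a median log2 ratio of -1.52. With the mean of all probe sets of each gene, 5 of the 11 were lower and the median was -0.95, since Tpm3, Atp2a2 and Myl2 then stayed under 2-fold. Tnnt1, the slow troponin T, had signals of 6702, 676, 1278 and 8659 and was 5.24-fold lower on ES than on sham. Tnnc1, troponin C of slow and cardiac muscle, had 8049, 1062, 2013 and 9176 and was 3.998-fold lower. Tnni1, the slow troponin I, had 6929, 977, 2224 and 8435, or 3.12-fold lower. For all 3 troponins the order of the arrays was the same, with exercise highest, then sham, then ES, then ischemia.

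The calcium pump of slow fibres, Atp2a2 (SERCA2), had signals of 8479, 1405, 2363 and 9694 and was 3.59-fold lower, while its other 3 probe sets had log2 ratios from -0.90 to -0.54. The Z-disc protein Myoz2 had 6181, 637, 2160 and 6725, or 2.86-fold lower. The regulatory light chain Myl2 had 6516, 995, 2455 and 6814, or 2.65-fold lower, with -0.50 for its other probe set. These genes, too, lay between sham and ischemia on the ES array. Myh7, the slow myosin heavy chain, had 11340, 2970, 4827 and 12422 and was 2.35-fold lower, while the log2 ratio of its other probe set was -3.80. Tpm3 had 3756, 160, 180 and 4794, or 20.9-fold lower, from 1 probe set. The other 5 Tpm3 probe sets had log2 ratios between -0.58 and 0.26, so its size rests on that probe set alone. Of the remaining members, the slow light chain Myl3 had a log2 ratio of -0.63, Mybpc1 of 0.06 and Casq2 of 0.08.

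As a list, fast fibre genes showed no such difference. None of 16 fast fibre contractile genes reached 2-fold, and their median log2 ratio was 0.08. The fast myosin Myh4 had signals of 12841, 13178, 10366 and 13339, or 1.24-fold lower on ES. Of the list, 13 genes lay above 0, the highest being Myh1 at 0.29. The 3 below 0 were the myosin kinase Mylk2 at -0.99, just short of 2-fold, Pvalb at -0.51 and Myh4 at -0.31. Many fast fibre genes are among the brightest on the arrays, and whether their probes were saturated was not tested.

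Sarcolipin (Sln), a small inhibitor of the calcium pump, had signals of 1420, 68.2, 665 and 802. It was 2.13-fold lower on ES than on sham and lowest on the ischemia array. It was the only member past 2-fold among 16 calcium handling genes, whose ratios otherwise ran from -0.32 for the calcium channel subunit Cacna1s to 0.85 for phospholamban (Pln).

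Genes of developing and regenerating myofibres were the counterpart on the higher side. Of 15 such genes, 10 were 2-fold or more higher and 0 lower, with a median log2 ratio of 1.17. Like all lists here, this one was written with earlier results of these data known. With the floor at the 70th percentile these were 7 of 14, with a median of 0.68. Myh8, the perinatal myosin heavy chain, had signals of 36.9, 86.4, 2393 and 44.99 and was 64.9-fold higher on ES than on sham. Myh3, the embryonic myosin, had 170, 180, 617 and 150, or 3.64-fold higher. Both myosins were highest on the ES array, and the other 3 arrays lay close together for Myh3. Myh8 was also more than 2-fold higher on ischemia than on sham, with a log2 ratio of 1.23. Myog (myogenin), a transcription factor of muscle differentiation, had 228, 159, 514 and 192, or 2.25-fold higher. Tnnt2, the cardiac troponin T also made by embryonic muscle, had 34.1, 37.5, 113 and the floor, or 3.30-fold higher. Myl4, the embryonic and atrial light chain, had 419, 546, 887 and 329, or 2.12-fold higher. Mymk (myomaker), which fuses myoblasts, was at the floor on sham and at 63.0 on ES, at least 2.09-fold higher.

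Of the imprinted genes of this list, Igf2, Cdkn1c, Mest and Dlk1 were among the higher members and H19 was not. Igf2, a fetal growth factor, had signals of 408, 802, 1680 and 466 and was 4.11-fold higher on ES. Cdkn1c, a cell cycle inhibitor, had 224, 447, 834 and 172, or 3.73-fold higher. Mest had 111, 172, 266 and 81.5, or 2.40-fold higher. In each of these 3 the ischemia array was second, between sham and ES. Dlk1, a membrane protein of the Notch ligand type, was at the floor on sham and at 106 on ES, at least 3.53-fold higher. Plagl1, an imprinted zinc finger gene outside the list, had 75.6, 158, 346 and 105, or 4.58-fold higher. The muscle commitment factor Myod1 was not among the higher genes, with a log2 ratio of -0.58, and that of the imprinted RNA H19 was 0.28.

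The windows upstream of the members that move together are shown for the letters they hold. The sequence CAGCTG, an E-box of the kind that MyoD and myogenin bind and that reads the same on both strands, was searched in the 250 bases before each start in the RefSeq promoter table (GRCr8). It was present in 3552 of 27457 promoters, 12.9%, and in 3 of the 8 promoters matched among the 10 higher genes of the list. These 3 windows follow, each with up to 40 bases on either side and the motif in capitals. They lie on the plus strand at chr10:89975991-89976076 for Myl4, chr13:49818873-49818957 for Tnnt2 and chr4:60321657-60321742 for Mest.
Myl4: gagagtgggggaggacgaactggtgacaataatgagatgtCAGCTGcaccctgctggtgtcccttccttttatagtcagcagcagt
Tnnt2: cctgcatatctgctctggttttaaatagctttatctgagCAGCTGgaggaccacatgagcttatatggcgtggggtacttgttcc
Mest: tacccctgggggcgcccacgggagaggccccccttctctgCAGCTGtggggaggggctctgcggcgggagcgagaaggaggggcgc
The motif begins 119 bases before the start in Myl4, 211 in Tnnt2 and 117 in Mest. A match is a description of the letters, and binding was not measured.

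Most stress genes of the ankyrin and LIM families and the Z-disc stayed within 2-fold. Of 17 measured, 1 was higher, 2 were lower and 14 were within 2-fold, with a median log2 ratio of -0.09. Among all genes compared, 3.78% were higher and 1.06% lower. Ankrd1 (CARP), a titin-binding ankyrin repeat protein, had signals of 77.7, 826, 1298 and 75.7 and was 16.7-fold higher on ES, with 3.71 on the log2 scale for its other probe set. Ankrd2, its relative in slow fibres, had 2141, 137, 549 and 2978, or 3.90-fold lower. Fhl2, a LIM domain protein, had 214, 32.1, 59.8 and 359, or 3.57-fold lower. For all 3 genes the ischemia array lay on the same side of sham as the ES array, and the exercise array did not reach 2-fold from sham.

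Of 12 neuromuscular junction and denervation genes, 3 were higher and 0 lower, with a median of 0.23. The acetylcholine receptor subunits Chrna1 (126, 118, 274 and 225) and Chrnd (132, 55.7, 265 and 89.6) were 2.18-fold and 2.01-fold higher. Agrn (agrin), the nerve-derived organiser of receptor clusters that vessels also make, had 78.0, 106, 173 and 98.7, or 2.22-fold higher. For these 3 genes ES gave the highest of the 4 signals. The subunit Chrne was at the floor on sham and at 55.4 on ES, at least 1.84-fold higher.

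Of 8 sodium pump and chloride channel genes, 1 was higher and 1 lower, both of the beta subunit family. Atp1b4, a muscle protein of the beta subunit family, had signals of 123, 199, 636 and 92.9 and was 5.18-fold higher on ES. Atp1b2, the beta 2 subunit, had 1513, 1996, 687 and 1852, or 2.20-fold lower. Of the other 6 sodium pump and chloride channel genes, Clcn1, the muscle chloride channel, was at 50.6 on sham and at the floor on ES, at least 1.68-fold lower. The potassium channel Kcnj2 was at the floor on ES too, and the rest lay between -0.44 (Kcnj11) and 0.04 (Atp1b1).

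**Figure D2:**
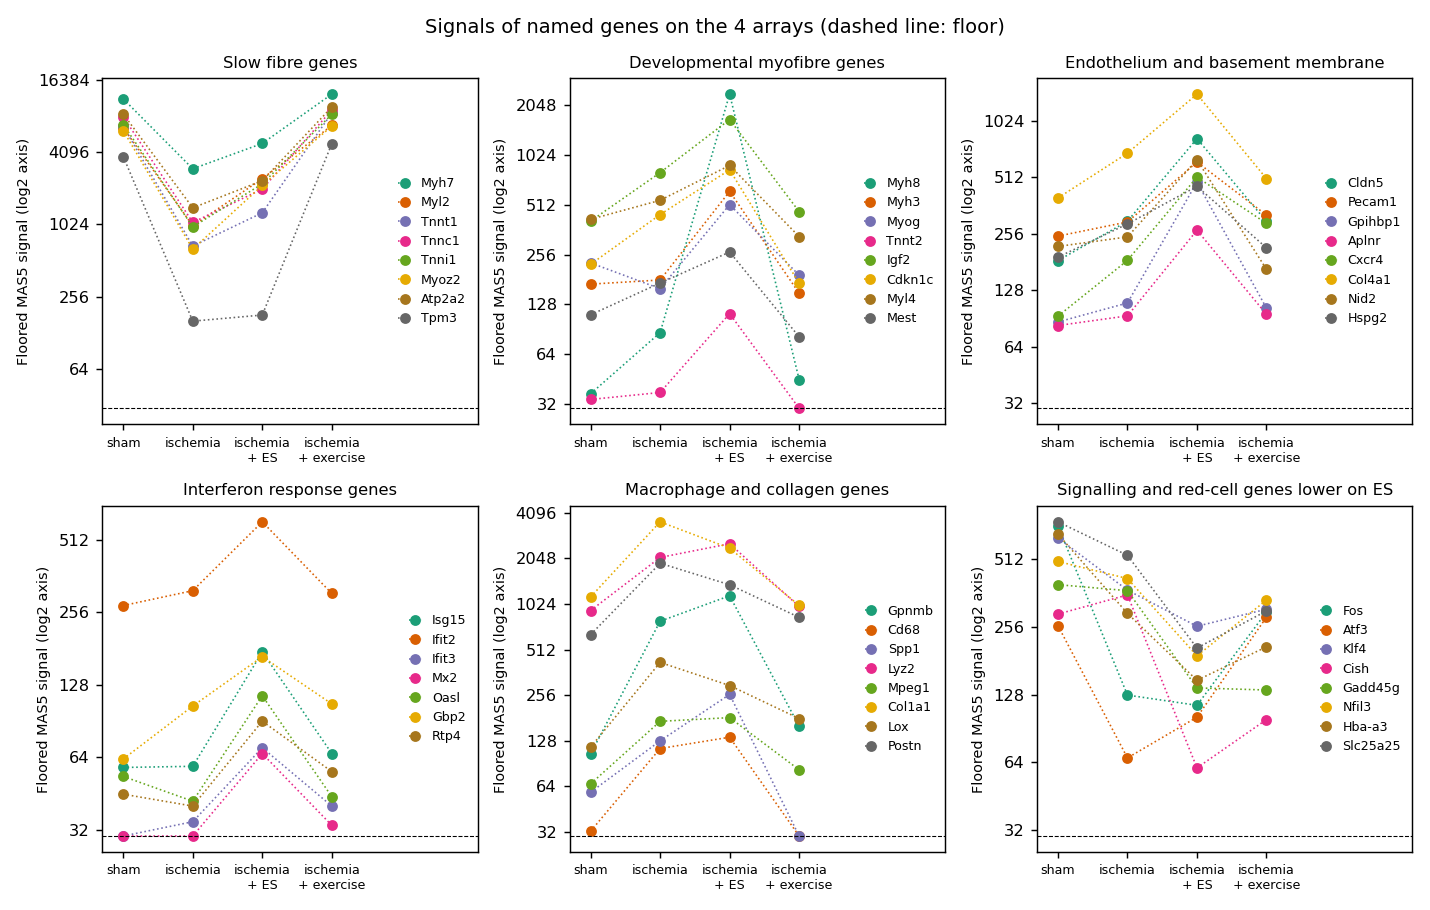
Floored MAS5 signal (log2 axis) of named genes on the 4 arrays, 1 array per group, with the floor dashed and dotted lines only joining points of a gene. Slow fibre genes lie low on ischemia and ES; Myh8, Cldn5 and the interferon genes are highest on ES; macrophage and collagen genes are high on both ischemia and ES.

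Genes of the capillary wall were higher with ES. Of 18 endothelial markers listed, 16 had a value, 4 were 2-fold or more higher and 0 lower, with a median log2 ratio of 0.89, and 15 of the 16 lay above 0. Cldn5, the claudin of endothelial tight junctions, had signals of 184, 298, 821 and 297 and was 4.46-fold higher. Pecam1 (CD31), an adhesion protein of endothelial junctions, had 249, 296, 616 and 321, or 2.48-fold higher. Tie1, an endothelial receptor kinase, had 93.5, 117, 235 and 120, or 2.51-fold higher. Ramp2, the partner of the adrenomedullin receptor, had 257, 260, 527 and 348, or 2.05-fold higher. All 4 genes were highest on ES, and the sham, ischemia and exercise arrays lay nearer to one another. The only marker under 0 was Vwf at -0.08. Summed over the list, the signal was 4720 on sham, 4950 on ischemia, 8543 on ES and 5140 on exercise.

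Of 23 angiogenesis and vascular signalling genes, 8 were higher and 0 lower, with a median of 0.65. Only 4 were higher with the mean of all probe sets, and 5 of 21 with the floor at the 70th percentile. Among receptors, Cxcr4, the receptor of Cxcl12, had signals of 93.2, 185, 512 and 290 and was 5.49-fold higher, and its other 2 probe sets gave log2 ratios of 2.28 and 2.42. Aplnr, the apelin receptor, had 83.1, 93.5, 267 and 95.3, or 3.22-fold higher. Its ligand apelin (Apln) had 152, 149, 314 and 170, or 2.06-fold higher, while its other probe set had 0.34. Nrp2, a co-receptor for VEGF-C and semaphorins, had 85.8, 72.7, 184 and 108, or 2.14-fold higher. Hey1, a Notch target, had 62.4, 112, 196 and 109, or 3.14-fold higher. Angpt2, a ligand of the receptor Tek, had 101, 143, 204 and 205, or 2.01-fold higher, with exercise as high as ES. Pgf, a ligand of Flt1, was at the floor on sham and at 61.7 on ES, at least 2.05-fold higher.

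Some of the best known regulators of vessel growth did not reach 2-fold. Vegfa had signals of 721, 557, 843 and 764, 1.17-fold higher on ES, and its other probe set went the other way at -0.20. Nos3, the endothelial nitric oxide synthase, had 74.1, 71.0, 136 and 67.6, or 1.83-fold higher. Hif1a had 590, 687, 644 and 723, or 1.09-fold higher. Kdr, the main VEGF receptor, had a log2 ratio of 0.68 and Flt1 of 0.12, while Fgf1 had -0.66 and Fgf2 was at the floor on ES, at least 1.67-fold lower. Of 17 targets of hypoxia-inducible factor, 1 was lower, Ankrd37 at 2.03-fold, and 0 were higher.

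Klk1, the tissue kallikrein that releases kinins from kininogen, was at the floor on sham and exercise, at 36.3 on ischemia and at 241 on ES. It was at least 7.998-fold higher on ES than on sham, the largest of the bounds. Ace, which cleaves angiotensin I and kinins, had 49.1, 54.1, 106 and 77.4, or 2.16-fold higher, with 0.30 for its other probe set.

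Basement membrane genes were higher as a group. Of 12 measured, 7 were 2-fold or more higher and 0 lower, all 12 lay above 0, and the median log2 ratio was 1.12. The collagen IV chains Col4a1 (397, 687, 1416 and 503) and Col4a2 (150, 183, 523 and 146) were 3.57-fold and 3.48-fold higher. Nid2 (nidogen 2), which links laminin to collagen IV, had 219, 246, 634 and 165, or 2.89-fold higher. Hspg2 (perlecan) had 192, 289, 457 and 215, or 2.38-fold higher. The laminin chains Lama4 and Lamb1 were 2.15-fold and 2.19-fold higher, and Sparc, which binds collagen IV, was 2.23-fold higher. Each of the 7 genes was highest on the ES array. The laminin chain of the myofibre sheath, Lama2, had a log2 ratio of 0.36.

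Among 14 pericyte and smooth muscle markers, 2 were higher and 1 was lower. With the mean of all probe sets 0 were higher and 1 was lower. With quantile or loess normalization 1 was higher, as was 1 of 11 with the floor at the 70th percentile. Mcam and Pdgfrb, both found on pericytes, were 2.36-fold (other probe set 0.52) and 2.10-fold higher, and Lmod1, a smooth muscle actin nucleator, was 2.40-fold lower. The contractile genes of smooth muscle had ratios near 0, with Acta2 at 0.14 and Myh11 at -0.04. The summed signal was 11967, 11131, 13427 and 12408 on the 4 arrays.

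Interstitial collagen genes were higher on ES than on sham, and several were higher still on ischemia. Of 16 fibrillar collagen and collagen processing genes above the floor, 6 were 2-fold or more higher and 0 lower, with a median of 0.87. Col1a1 had signals of 1137, 3561, 2385 and 1000 and was 2.10-fold higher on ES. Lox, which crosslinks collagen, had 116, 421, 296 and 179, or 2.55-fold higher. Pcolce, an enhancer of procollagen cleavage, had 209, 573, 483 and 211, or 2.31-fold higher. These 3 were highest on ischemia, whereas Col5a1, Col5a3 and Loxl1, at 2.36-fold, 2.55-fold and 2.24-fold higher, were highest on ES. Among the prolyl and lysyl hydroxylase genes, P4ha1, P4ha2, Plod2 and Plod1 had log2 ratios of -0.71, -0.38, -0.13 and 0.58, and P4ha3 was at the floor on both arrays.

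Of 15 other collagens and proteoglycans, 6 were higher and 1 was lower, and 3 and 0 with the mean of all probe sets. The collagen VI chains Col6a1, Col6a2 and Col6a3 were 2.98-fold, 2.30-fold and 2.21-fold higher, and Col6a1 had signals of 394, 828, 1174 and 405. Col14a1, Col15a1 and Col18a1 were 2.03-fold, 2.06-fold and 2.18-fold higher. The other probe sets of Col14a1 and Col6a2 had 0.38 and 0.68. Col12a1, a collagen of tendon and fascia, had 170, 184, 69.0 and 152, or 2.47-fold lower, with ES the lowest of the arrays. The 7 tendon markers all stayed within 2-fold, with 6 of them under 0 and summed signals of 1491, 2398, 1307 and 2210. The summed signal of 11 fibroblast markers was 16282, 22825, 21605 and 17961, and Thy1 alone passed 2-fold, at 2.58-fold higher. The part of these cell markers in the collagen ratios was not tested.

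The matricellular genes held members of both directions, 3 higher and 3 lower of 17. Spp1 (osteopontin), a matrix protein and cytokine, had signals of 58.6, 128, 259 and the floor and was 4.42-fold higher. Postn (periostin) had 642, 1898, 1369 and 834, or 2.13-fold higher, and Cthrc1 had 35.5, 133, 81.8 and 33.5, or 2.31-fold higher. Ccn2 (connective tissue growth factor) had 1415, 958, 605 and 1760, or 2.34-fold lower. Its relative Ccn1 had 511, 363, 246 and 306, or 2.08-fold lower, and so both CCN genes were lowest on ES. The collagenase Mmp13 had 131 on sham and was at the floor on ES, at least 4.36-fold lower.

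Macrophage genes were higher on ES and on ischemia alike. Of 19 macrophage markers with a value, 6 were 2-fold or more higher and 0 lower, with a median of 0.82. With the floor at the 70th percentile 3 of 12 were higher. Gpnmb, a glycoprotein of lysosome-rich macrophages, had signals of 105, 787, 1158 and 160 and was 11.04-fold higher. Cd68, a lysosomal macrophage protein, had 32.4, 114, 135 and the floor, or 4.17-fold higher. Lyz2 (lysozyme) had 925, 2073, 2553 and 984, or 2.76-fold higher. Mpeg1 (perforin 2) had 66.5, 172, 182 and 82.4, or 2.74-fold higher, and Tyrobp, an adaptor of myeloid receptors, was 2.15-fold higher. All of these genes were highest on ES and next highest on ischemia. The scavenger receptor Cd163, of resident macrophages, had a log2 ratio of -0.38. Summed over the list, the signal was 2556, 5582, 6568 and 3745. The sum on exercise was above that on sham, while the list's median log2 ratio of exercise over sham was -0.02.

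Other genes of phagocytes were members too. Of 12 complement and phagocyte receptor genes above the floor, 2 were higher, as were 3 of 17 cathepsin and lysosome genes and 3 of 8 cytokine and chemokine genes. With the floor at the 70th percentile these counts were 1 of 9, 3 of 17 and 0 of 3. Among all genes compared, 3.78% were higher. The phagocyte oxidase subunit Cybb had signals of 151, 440, 521 and 151, or 3.44-fold higher, and the Fc receptor Fcgr2b was at least 2.26-fold higher. The lysosomal proteases Ctsk (105, 278, 246 and 105) and Ctss (173, 290, 394 and 162) were 2.34-fold and 2.28-fold higher. Apoe, a lipid carrier of macrophages among other cells, had 462, 1422, 1333 and 679, or 2.88-fold higher. The macrophage elastase Mmp12 was at the floor on sham and at 146 on ES, at least 4.86-fold higher. The chemokines Ccl2, Ccl5 and Cxcl16 were at least 2.33-fold, at least 2.71-fold and 2.31-fold higher, and Ccl5 was above the floor on the ES array only. Markers of other blood cells gave little signal: 2 of the 7 neutrophil markers and 2 of the 13 lymphocyte markers on the array were above the floor on sham or ES, and 0 of these passed 2-fold.

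Interferon response genes were higher on ES. Of 22 measured, 7 were 2-fold or more higher and 0 lower, with a median of 0.71. With the floor at the 70th percentile 1 of 16 was higher. Isg15, the ubiquitin-like interferon product, had signals of 58.0, 58.6, 175 and 66.3 and was 3.02-fold higher. Gbp2, a guanylate-binding protein, had 62.9, 104, 167 and 106, or 2.66-fold higher. Ifit2, which blocks translation of viral RNA, had 272, 314, 606 and 306, or 2.23-fold higher. For each of these the ES array was the highest of 4. Oasl and Rtp4 were 2.16-fold and 2.01-fold higher, and Ifit3 and Mx2, at the floor on sham, at least 2.32-fold and at least 2.20-fold higher. Most of the 7 were dim on sham, where small errors move a ratio most. Rtp4 fell under 2-fold with quantile or loess normalization, with log2 ratios of 0.87 and 0.89. Of 18 antigen presentation genes, 1 passed, the immunoproteasome subunit Psmb8 at 2.24-fold higher, and the list's median was 0.53.

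The interferon-stimulated response element, searched as GAAANNGAAA on both strands where N is any base, was found in 992 of 27457 RefSeq promoters (GRCr8), 3.61%. Among promoters of genes compared here the count was 238 of 8462, 2.81%. Of the list, 16 promoters were matched and 10 held the motif, 62.5%. The list was made of known interferon response genes, so a high share follows from its choice and says nothing of ES. Of the 7 genes past 2-fold, 3 were matched and 2 held the motif, too few to set apart from the rest of the list. These 2 are shown with up to 40 bases on either side and the motif, read from the other strand, in capitals. They lie on the plus strand at chr1:241527242-241527325 for Ifit3 and chr2:234005656-234005726 for Gbp2.
Ifit3: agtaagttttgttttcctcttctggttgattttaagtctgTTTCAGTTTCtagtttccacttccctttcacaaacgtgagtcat
Gbp2: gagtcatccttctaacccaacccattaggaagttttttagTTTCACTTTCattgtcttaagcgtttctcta
The motif begins 44 bases before the start in Ifit3 and 31 in Gbp2. A match of this motif is never one of CAGCTG, and a match says nothing of which factor bound.

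**Figure D3:**
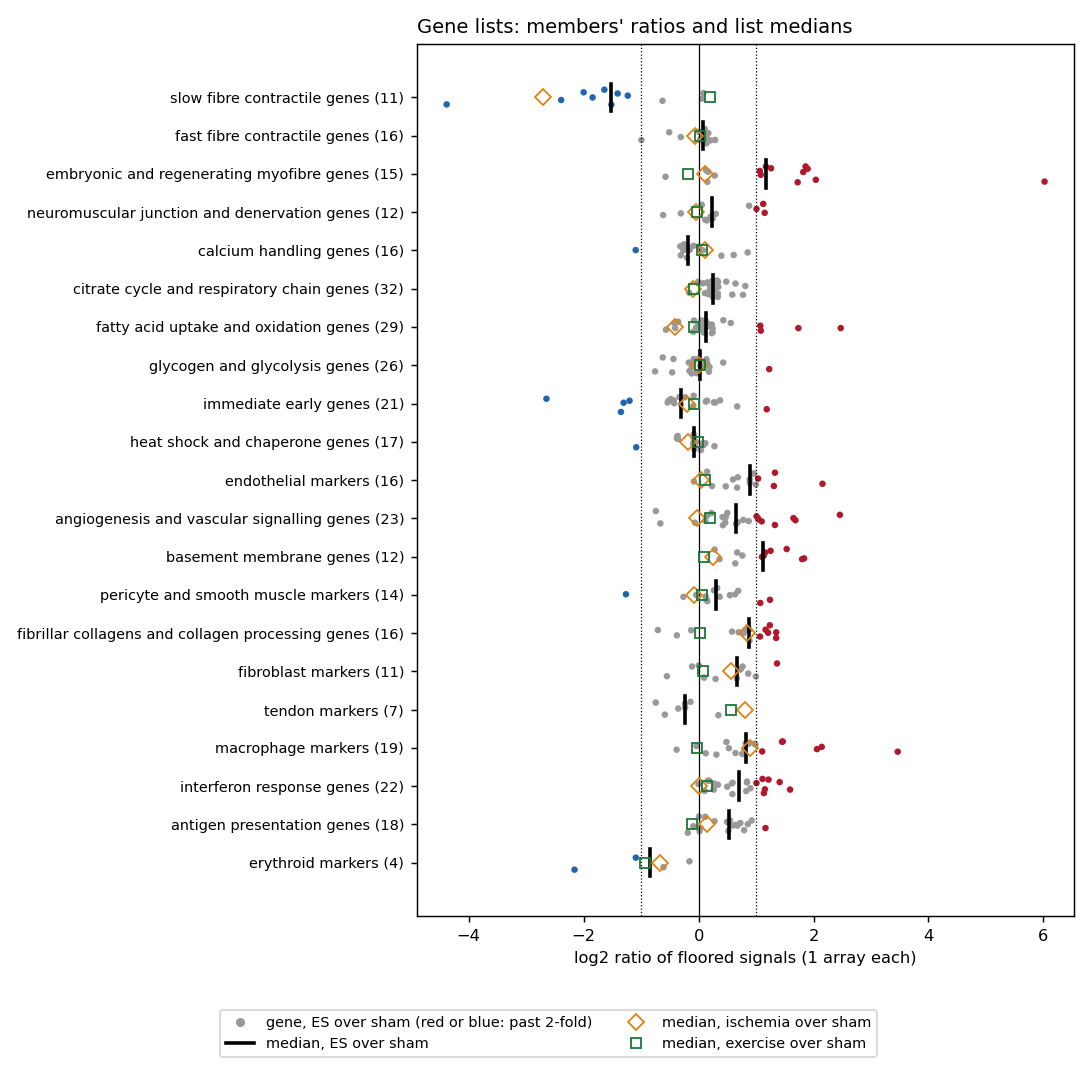
Log2 ratio of floored signals, ischemia + ES over sham, for the members of 21 lists (points, red or blue past 2-fold; number with a value in brackets), with the list median as a black bar. Orange diamonds and green squares give the list medians of ischemia and of exercise over the same sham array; the slow fibre list has its ES median of -1.52 between -2.71 (ischemia) and 0.19 (exercise), and the embryonic list stands at 1.17, 0.12 and -0.18.

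The medians of the lists on the 3 ischemic arrays stand side by side here, all over the same sham array, so they are not independent. For slow fibre genes they were -1.52 on ES, -2.71 on ischemia and 0.19 on exercise. For embryonic myofibre genes they were 1.17, 0.12 and -0.18, and for basement membrane genes 1.12, 0.24 and 0.10. Endothelial markers had 0.89, 0.05 and 0.11, and interferon genes 0.71, 0.01 and 0.14. These last 4 lists were thus highest on the ES array. Fibrillar collagens had 0.87, 0.84 and 0.02 and macrophage markers 0.82, 0.90 and -0.02, so these lists were about as high on ischemia as on ES.

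Energy metabolism genes mostly stayed within 2-fold. None of 32 citrate cycle and respiratory chain genes passed, yet 30 of them lay above 0, with a median of 0.25 against 0.05 for all genes compared. The largest were the cytochrome oxidase subunits Cox6a1 and Cox7a1, at 0.81 and 0.77. Citrate synthase (Cs), a common marker of mitochondrial content, had signals of 4324, 4012, 6037 and 4224, a log2 ratio of 0.48. Of all genes compared, 4.84% were past 2-fold. None of 14 phosphotransfer genes and 1 of 26 glycogen and glycolysis genes passed. That gene was Pdk4, a kinase that shuts off pyruvate oxidation, with 2232, 3570, 5232 and 4570, or 2.34-fold higher, with 0.93 for its other probe set.

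Of 29 fatty acid genes, 4 were higher and 0 lower, with a median of 0.12. Gpihbp1, which holds lipoprotein lipase on the capillary wall, had signals of 86.8, 110, 482 and 103 and was 5.55-fold higher. Angptl4, an inhibitor of that lipase, had 36.5, 85.7, 122 and 61.5, or 3.33-fold higher. Fabp4, a fatty acid carrier of endothelium and fat cells, had 1989, 2154, 4215 and 2218, or 2.12-fold higher, and Ucp3, a mitochondrial carrier of muscle, was 2.10-fold higher, with 0.67 for its other probe set. Lpl, the lipase itself, had a log2 ratio of -0.41. Outside the list, the related carrier Fabp5 was 3.78-fold higher, and the lipoprotein receptor Scarb1 4.20-fold higher with 0.74 for its other probe set. The oxidation enzymes ranged from -0.42 (Echs1) to 0.56 (Acaa2). Of 6 fat cell markers with a value, Fabp4 was the only one past 2-fold, 4 lay above 0 and the median was 0.34, with summed signals of 5281, 3847, 6841 and 5659. Their defining hormone Adipoq was at 42.7 on sham and 31.8 on ES, Plin1 was at the floor on both, and the part of fat cells in these ratios was not tested.

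Of 22 regulators of mitochondrial genes and AMP-activated kinase genes, 2 were lower and 0 higher, with a median of -0.15. Esrrg, an orphan nuclear receptor of oxidative muscle, had signals of 960, 492, 470 and 912, or 2.04-fold lower, and Mss51, a mitochondrial muscle protein, had 227, 360, 98.5 and 328, or 2.31-fold lower. Ppargc1a (PGC-1 alpha), the coactivator induced by endurance exercise, had 308, 250, 334 and 467, or 1.08-fold higher. The AMP-activated kinase subunits Prkag3 and Prkaa2 fell short of 2-fold lower. Prkag3 had 1539, 2784, 842 and 2100, or 1.83-fold lower, and Prkaa2 had a log2 ratio of -0.99. Both were lowest on the ES array.

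Synthesis and stress genes gave few members. Of 15 cholesterol and lipid synthesis genes above the floor, Scd, Abcg1 and Apoe were higher, at 2.46-fold, 2.15-fold and 2.88-fold, while the enzymes of cholesterol synthesis ran from -0.80 (Cyp51) to 0.04 (Dhcr7). Asns (asparagine synthetase) and Aldh1l2, both targets of the amino acid response, were at least 2.74-fold and 2.50-fold higher among 18 genes. Abcg1 fell just under 2-fold with quantile normalization, at 0.99. Nqo1, a quinone reductase, was 2.22-fold lower and the only 1 of 19 antioxidant genes past 2-fold.

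Immediate early genes, which respond within minutes to contraction, serum or stress, were lower where they passed, with 1 exception. Of 21 measured, 4 were 2-fold or more lower and 1 higher, with a median of -0.31, or -0.14 with the mean of all probe sets. Fos had signals of 719, 127, 115 and 298 and was 6.26-fold lower on ES. Atf3 had 259, 67.0, 102 and 283, or 2.55-fold lower, and Klf4 had 636, 373, 258 and 307, or 2.47-fold lower. Fos and Klf4 were highest on sham among the 4 arrays, and Atf3 was as high on exercise as on sham. Nr4a2 was at 69.2 on sham and at the floor on the other arrays, at least 2.30-fold lower. Junb had 38.4, 43.3, 87.4 and 52.7, or 2.28-fold higher. Egr1 and Nr4a1 had log2 ratios of -0.24 and -0.54. The inducible chaperone Hspa1a had 443, 177, 209 and 580, or 2.12-fold lower, and was the only 1 of 17 heat shock genes past 2-fold.

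Several inhibitors of growth and cytokine signalling were members. Cish, the feedback inhibitor of growth hormone and STAT5 signalling, had signals of 292, 355, 60.5 and 99.2 and was 4.83-fold lower. Its relative Socs2 was at 34.9 on sham and at the floor on ES, Igf1 had a log2 ratio of 0.95, and Cish was the only member among 16 growth factor genes. Gadd45g, a stress-induced growth arrest gene, had 395, 371, 137 and 134, or 2.88-fold lower. Its paralog Gadd45a had 178, 242, 433 and 173, or 2.43-fold higher, and Cdkn1a (p21), an inhibitor of cell division, had 182, 207, 694 and 181, or 3.81-fold higher. Cish and Gadd45g were low on both treated arrays, whereas Gadd45a and Cdkn1a were high on ES alone. Of 21 cell cycle genes, Mki67 was at least 2.86-fold and Stmn1 2.04-fold higher, and the other 19 stayed within 2-fold, from -0.35 for Tk1 up to Cdk1, at the floor on sham and at least 1.88-fold higher. This count depended on the floor: 9 of 21 were higher with it at the 30th percentile, and 1 of 6 at the 70th. None of 17 atrophy genes passed, against 4.84% of all genes compared. The ligases Trim63 (MuRF1) and Fbxo32 (atrogin-1) had log2 ratios of 0.34 and -0.59.

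Most circadian clock genes stayed within 2-fold. Of 17 measured, 2 were higher, 1 was lower and 14 were within 2-fold, with a median log2 ratio of -0.008. Among all genes compared, 3.78% were higher and 1.06% lower. Dbp, an output transcription factor of the clock, had signals of 125, 118, 368 and 297, or 2.94-fold higher, and the clock repressor Nr1d1 had 140, 224, 308 and 346, or 2.20-fold higher. Nfil3, which opposes Dbp at shared sites, had 500, 420, 190 and 337, or 2.63-fold lower. Dbp and Nr1d1 were high on both treated arrays. The core clock gene Bmal1 had a log2 ratio of -0.49 and Per1 of 0.35. The time of day of sampling is not given in the labels, and its part was not tested.

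Red cell markers gave less summed signal on all 3 ischemic arrays than on sham, and 2 of the 4 with a value were 2-fold or more lower on ES. Hba-a3, an alpha globin, had signals of 662, 294, 148 and 209 and was 4.46-fold lower on ES. Globin genes are close copies of each other, so a probe set may read more than 1 of them. Alas2, the heme synthesis enzyme of red cell precursors, had 240, 139, 112 and 97.4, or 2.13-fold lower, and the beta globin Hbb had a log2 ratio of -0.61. The summed signal of the list was 11268.5 on sham and 7057 to 7462 on the others.

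The remaining largest ratios belong to genes of varied function. Ints1, a subunit of the Integrator complex, had signals of 141, 114, 784 and 593, or 5.58-fold higher, while a further probe set of the gene stood at 0.09 on the log2 scale. Maged2 was 4.25-fold higher, Tp53i11 4.01-fold, the interferon-inducible Ifitm1 3.93-fold and Ccdc125 3.69-fold. Among bounds, Igsf1 was at least 3.96-fold higher (other probe set 0.51), Ip6k2 at least 3.61-fold, Il2rg, the common cytokine receptor chain, at least 3.46-fold, Trim30d at least 3.29-fold, Cnbd2 at least 3.23-fold, Dnm2 at least 2.998-fold and Pcdh17 at least 2.95-fold. All of these bounds have sham at the floor, so their size depends on where the floor was set.

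On the lower side, Xpo4, a nuclear exportin, had signals of 521, 69.0, 89.7 and 788 and was 5.81-fold lower, with its other 2 probe sets at -1.27 and -0.63. Rrad, a small GTPase that restrains calcium channels, had 459, 49.1, 117 and 883, or 3.92-fold lower. The amino acid transporter Slc38a1 had 150, 41.6, 36.4 and 175, or 4.12-fold lower, with -0.48 for its other probe set. These 3 had the order of the slow fibre genes in that sham and exercise were high and ischemia and ES low. Slc25a25, a calcium-regulated ATP-magnesium carrier of mitochondria, had 751, 533, 206 and 302, or 3.64-fold lower. The methyltransferase Mettl21c had 296, 153, 76.9 and 281, or 3.85-fold lower, and the kinase Dyrk2 712, 772, 248 and 491, or 2.86-fold lower, with its other 3 probe sets at -1.62 to -1.58. For these 3 the ES array was the lowest of 4. Npy (neuropeptide Y), the cotransmitter of sympathetic nerves, had 588, 264, 178 and 210, or 3.30-fold lower, and Tent5c was 2.93-fold lower.

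The largest lower bounds were Cda (cytidine deaminase), at least 6.19-fold lower with 187 on sham and 254 on exercise, and Ibsp (bone sialoprotein), at least 3.60-fold lower. Adgrb2 was at least 3.43-fold, Tsn 2.89-fold, Slc4a3 2.61-fold, Mpv17l 2.39-fold, the sodium channel Scn1a 2.37-fold and Emx2 2.32-fold lower, all as bounds with ES at the floor.

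Several lists held no member. None of 11 dystrophin complex and membrane repair genes, 8 secreted Wnt modulators, 10 cytosolic ribosomal protein genes or 25 proteasome subunits passed 2-fold. Of 6 Schwann cell markers and 2 mast cell markers with a value, 0 passed. Of all genes compared, 4.84% were past 2-fold, a share at which lists this short can hold none.

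The ischemia and exercise arrays form a pair that shares no array with ES and sham, though floor and probe sets were chosen on all 4. In ischemia over exercise, 88 genes were 2-fold or more higher, 0.872% of those compared, and 115 were lower, 1.14%. Of the genes higher in ES over sham, 37 were also higher in this pair, 9.71% of the 381 and 42.05% of the 88. Of the lower genes, 36 were shared, 33.6% of the 107 and 31.3% of the 115. The shared lower genes included the 8 slow fibre genes, Ankrd2, Fhl2, Rrad, Xpo4, Sln, Fos and Hspa1a. The shared higher genes included Ankrd1, Gpnmb, Cd68, Spp1, Cybb, Col1a1, Lox, the 3 collagen VI chains and Cdkn1c. Of these 2 pairs, Myh8, Klk1, Cldn5, Gpihbp1 and Isg15 were past 2-fold in ES over sham only. Myh8 fell just short in ischemia over exercise, with a log2 ratio of 0.94.

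In ischemia over exercise, 5 of the 381 higher genes and 3 of the 107 lower genes were past 2-fold the opposite way. Of all genes compared, 1.14% were lower and 0.872% higher in that pair. Dbp, Ints1, Msmp, Osbp2 and Osbpl3 were higher in ES over sham and lower in ischemia over exercise, that is, high on both treated arrays. Osbpl3, an oxysterol-binding protein, had signals of 61.8, 51.6, 139 and 103 (other probe set 0.31), and its relative Osbp2 was at the floor on sham and ischemia and at 65.1 and 62.5 on ES and exercise. Msmp was likewise at the floor on the untreated arrays and at 64.6 and 66.1 on the treated ones. Cish, Gadd45g and the platelet tubulin Tubb1 went the other way, and Tubb1 had 65.0, 77.8, 32.4 and 35.4.

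**Figure D4:**
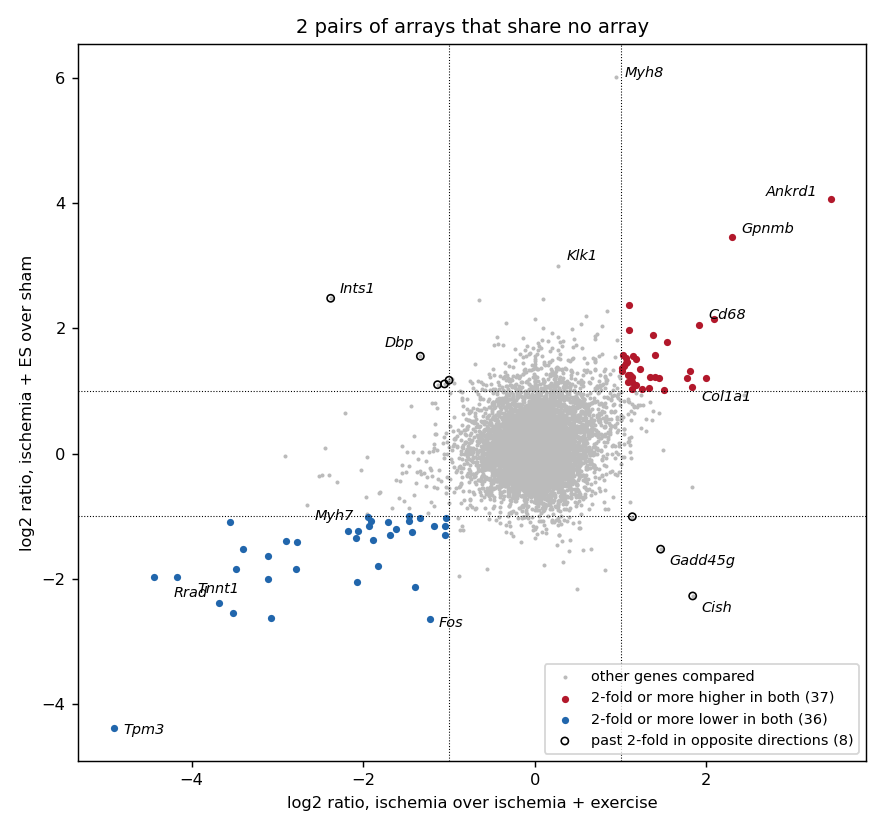
Log2 ratio of ischemia + ES over sham (vertical) against that of ischemia over ischemia + exercise (horizontal), 2 pairs with no array in common, 1 point per gene, dotted lines at 2-fold. Genes past 2-fold alike in both pairs are red (37 higher) or blue (36 lower), and the 8 of opposite direction are circled. Myh8 lies highest in the ES pair and at 0.94, just short of 2-fold, in the other.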

How the data were processed

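RNA of rat skeletal muscle was hybridised to 4 single-colour arrays, 1 per group as titled. RNA was extracted with a kit for fibrous tissue and labelled with a 3' primed kit, per the labels' protocols. The authors deposited 1 linear intensity per probe set and array; MAS5 is the only tool named, per the submitters' processing notes, and its version and scaling target are not stated. The trimmed mean, leaving out 2% at each end, was 150.1 on all 4 arrays, so arrays had been scaled to a common level, and a difference in total mRNA cannot be seen.

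The platform annotation of 2016 gave a single symbol to 20832 of the 31099 probe sets, several to 436 and none to 9831; only the first were named. RefSeq (GRCr8) held the gene of 20764 and changed 0 symbols. Values under the 50th percentile of the 4 arrays (30.1) were raised to it and log2 taken. A gene took the values of its brightest probe set by mean signal, and was compared if over the floor on any of the 4 arrays. A gene counted as higher or lower from a ratio of 2.

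Members, 38 gene lists and 11 marker lists (877 symbols, 786 matched, 16 of them by an older name, 702 compared) were chosen with earlier results of these data known; list medians cover genes above the floor on sham or ES and take bounds at their floored value. Named were the 20 highest and 20 lowest genes over the floor on sham and ES, the 10 largest bounds each way, list members past 2-fold, 16 fixed genes and genes of counts of 5 or fewer, without LOC and RGD symbols. Other names were chosen after their values were seen. Alternatives were scaling, quantile and cyclic loess normalization (limma 3.58.1 in R 4.3.3), floors at the 30th and 70th percentile, 1.5-fold and 3-fold, the mean of all probe sets, leaving out probe sets open to cross-hybridization, and only genes over the floor on sham and ES. The calculation was tested on simulated data. Python 3.11.15 with numpy 2.4.6 and pandas 2.3.3 was used.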

Additional observations from a re-analysis of the deposited data

How the results depend on the processing

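The counts depended most on the floor and the fold. With the floor at the 30th percentile 649 genes were higher, 232 lower and 148 alike in both pairs of arrays (381, 107 and 73 as reported); at the 70th percentile they were 165, 60 and 41. At 1.5-fold they were 1249, 440 and 262, and at 3-fold 57, 21 and 16. The other settings kept these counts within 1.5 times. The median of 2 lists changed sign at the 70th percentile floor, amino acid transport and stress genes to -0.15, with 9 of 18 members left above the floor, and neutrophil markers to 0.072, with 1 of 2 left. The slow fibre median was -0.95 with the mean of all probe sets, and the embryonic list's 0.68 at the higher floor. Of 157 named genes past 2-fold, 148 stayed past it under the 3 scalings tried, 78 under every setting run on single genes, and 0 changed direction. With the mean of all probe sets 33 fell under 2-fold, among them Tpm3 (-0.43), Igf2 (0.51), Ints1 (0.51), Atp2a2 (-0.82) and Myl2 (-0.95). The median of all genes was 0.05 as reported, 0.01 with quantile and 0.02 with loess normalization, and the share of higher genes among members went from 78.1% to 73.0% and 73.9%. No paired analysis was possible because each group has 1 array. Dim probe sets give noisy MAS5 ratios, and 1 array per group leaves the spread between animals unmeasured.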

Other observations

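The genes in this section lie outside the lists, were chosen after their values were seen, and support nothing further. More genes known from endothelial cells were 2-fold or more higher on ES than on sham. The transcription factors Sox18, Sox7, Fli1 and Ets1 had log2 ratios of 1.86, 1.21, 1.42 and 1.04. Sox18 had signals of 82.4 on sham, 100.3 on ischemia, 299 on ES and 136 on exercise. The surface proteins Cd93, Clec14a and Ecscr had ratios of 1.77, 1.15 and 1.25, and the gap junction protein Gja4 had 1.03. Another probe set of Cd93 had 0.10, and those of Fli1 ran from -0.02 to 1.002. Other genes active in vessels were lower. Klf2, a factor induced by laminar flow, had 913 on sham, 351 on ischemia, 442 on ES and 508 on exercise, a ratio of -1.05, and its other probe sets ran from -1.19 to -0.14. The prostacyclin synthase Ptgis had -1.27 and Smad6, an inhibitor of BMP signalling, -1.25, with -0.29 for its other probe set.

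Meg3, a maternally expressed imprinted RNA, had signals of 80.0 on sham, 103 on ischemia, 249 on ES and 91.4 on exercise, a log2 ratio of 1.64, with 1.70 for its other probe set. The dual-specificity phosphatases Dusp26 and Dusp8 had ratios of -1.32 and -1.10, and Dusp10 was at the floor on ES, with a bound of -1.13. Prox1, a transcription factor of slow fibres and lymphatic endothelium, had 130 on sham, the floor on ischemia, 49.2 on ES and 225 on exercise, a ratio of -1.40. Of 3877 probe sets above the floor on at least 1 array with no gene symbol or with several, 97 were higher and 51 lower past 2-fold.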
